A study of Mus musculus with 2931 samples.

Results

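The genes described are Dbn1, Cotl1, Twf2, Gap43, Rtn1, Tppp3, Marcks and Stmn1, 8 of the 18072 gene symbols in a table of read counts from single endothelial cells (EC) of developing mouse lung. They were chosen by symbol, after their levels at postnatal day 21 (P21) against P7 and at the embryonic stage E18.5 against P1 had been seen in these same cells. Those contrasts are therefore given as descriptions without a test. Tests are given for P7 against P1 and for hyperoxia against normal air at P7, which the choice did not name. Earlier results of these data were known when the genes were picked. The P1 and normal air P7 mice of these tests also enter the contrasts behind the choice. The tests are therefore not independent of it.

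The study sorted cells of distal lung into plate wells and sequenced each as a full-length library cut by the Tn5 transposase. It holds 2931 cells from 10 mice, a female and a male for each of 5 groups. Of these groups 4 carry the treatment label normal, written here as normal air (E18.5, P1, P7, P21), and the fifth is P7 with the label hyperoxia. The oxygen level, the length of exposure and the strain are not given in the sources used here, and neither is the number of animals behind a mouse name, so the p-values measure only the spread between the named mice. The cells carry 10 subtype labels from the authors. Most came from a CD31 sort gate (2694 cells), with 224 from a gate named mesench and 13 from a CD45 gate.

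Endothelial cells that sprout or spread extend protrusions whose shape is set by actin filaments at the edge and microtubules behind it. Several of the proteins described here are best known from growing nerve endings, where they link the membrane to the cytoskeleton or control how filaments turn over. Lung capillaries hold a pair of cell types, large Car4+ cells (also called aerocytes) that spread over the alveoli, and Car4- cells that form the general capillary network and include the progenitors.

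Reads of all cells of a mouse in a class were summed and scaled by the class's total reads to the standard CPM unit. The label classes Early Car4- and Late Car4- were summed together as Car4- capillaries, because P21 cells were mostly Late and P1 and P7 cells mostly Early (the P7 female, with 162 Early and 44 Late cells, was the most mixed). Total reads per mouse ran from 56564316 to 331392982, and the median per cell from 188609.5 in the P7 male to 928377 in the P7 female. Median genes per cell ran from 1831 in the P21 male to 4152 in the P1 female. All 6 endothelial marker genes were in the table, with a summed level between 3679 and 13449.5 CPM in the main classes. The summed level of 9 mesenchymal markers was 0 to 47.9 CPM in Car4- and 0.920 to 27.1 CPM in Car4+ capillaries, against 1.01 to 401 CPM in proliferative EC, where the P1 male (350 CPM) and the P7 male (401 CPM) stood apart. The title of each cell holds a batch code, called a run here, and the titles do not say what it marks. The CD31-gate cells of the E18.5, P1 and P21 females shared a run, as did those of the E18.5, P7, hyperoxia and P21 males. Each of the other 3 mice (P7 female, P1 male, hyperoxia female) had a run with no other mouse among the CD31-gate cells. Day and run therefore cannot be told apart for P7 against P1.

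RefSeq promoter windows (GRCm38.p6, from 250 bases before to 50 bases after a start site) were matched for 2 of the 8 genes, Dbn1 and Rtn1, both of which were lower in each P21 mouse than in each P7 mouse in both capillary classes. The windows are shown for the GC box, GGGCGG, printed in capitals on either strand (CCGCCC on the reverse). The Dbn1 window lies on the minus strand at chr13:55488027-55488326, has 76.7% G and C and 4 matches. Rtn1 has 3 windows in the table, and the one shown is its most GC-rich, on the minus strand at chr12:72236678-72236977, with 73.3% G and C and 3 matches. Its other 2 windows have 45.3% and 46.3% G and C and hold 1 and 0 GC boxes, and the latter holds 1 match of the TEAD motif GGAATG.
Dbn1: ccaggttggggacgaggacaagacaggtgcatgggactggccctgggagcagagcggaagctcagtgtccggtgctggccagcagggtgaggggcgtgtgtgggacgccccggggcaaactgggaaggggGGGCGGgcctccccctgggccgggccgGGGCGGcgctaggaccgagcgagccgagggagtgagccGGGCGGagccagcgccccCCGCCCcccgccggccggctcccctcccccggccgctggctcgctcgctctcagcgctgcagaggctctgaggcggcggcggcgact
Rtn1: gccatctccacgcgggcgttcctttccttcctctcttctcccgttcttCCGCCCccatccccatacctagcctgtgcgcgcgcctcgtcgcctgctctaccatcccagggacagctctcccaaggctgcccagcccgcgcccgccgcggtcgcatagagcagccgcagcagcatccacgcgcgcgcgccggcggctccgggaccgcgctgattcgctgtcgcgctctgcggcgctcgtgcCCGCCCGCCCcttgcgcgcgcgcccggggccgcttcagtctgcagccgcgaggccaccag
A GC box was present in 35.7% of all 32851 promoter windows of this length. Neither printed window held the TATA box TATAAA (13.6% of all windows), the E2F motifs TTTGGCGC or TTTCGCGC (0.813%), GGAATG (14.7%) or a CArG box (1.63%), on either strand. These are letter matches and say nothing of which factor binds.

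Across the subtype labels the 8 genes did not share a pattern. By median over mice, only 2 of them were highest in a capillary label. Rtn1 and Tppp3 had their highest median over mice in Car4+ capillaries (467 and 712 CPM). Stmn1 was highest in proliferative EC (1241 CPM), while Cotl1, Gap43 and Marcks were highest in lymphatic EC (408, 536 and 1005 CPM over 4 mice). Dbn1 and Twf2 had their highest medians in the label arterial EC I (201 and 204 CPM over 7 mice). The labels hold mice of different days, so these medians do not compare labels at 1 day. Among labels with 2 mice at P1, Marcks and Twf2 instead had their highest mean in Car4+ capillaries. Marcks was 1308 CPM there and 1137 in lymphatic EC, and Twf2 was 234 there and 176 in arterial EC I. The other genes kept their label at P1. In the hyperoxia female Gap43 was 105 CPM in Car4+ capillaries and 58.1 in lymphatic EC. Labels may have been drawn from clustering of the same reads, so differences between labels are described without a test.

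**Figure D1:**
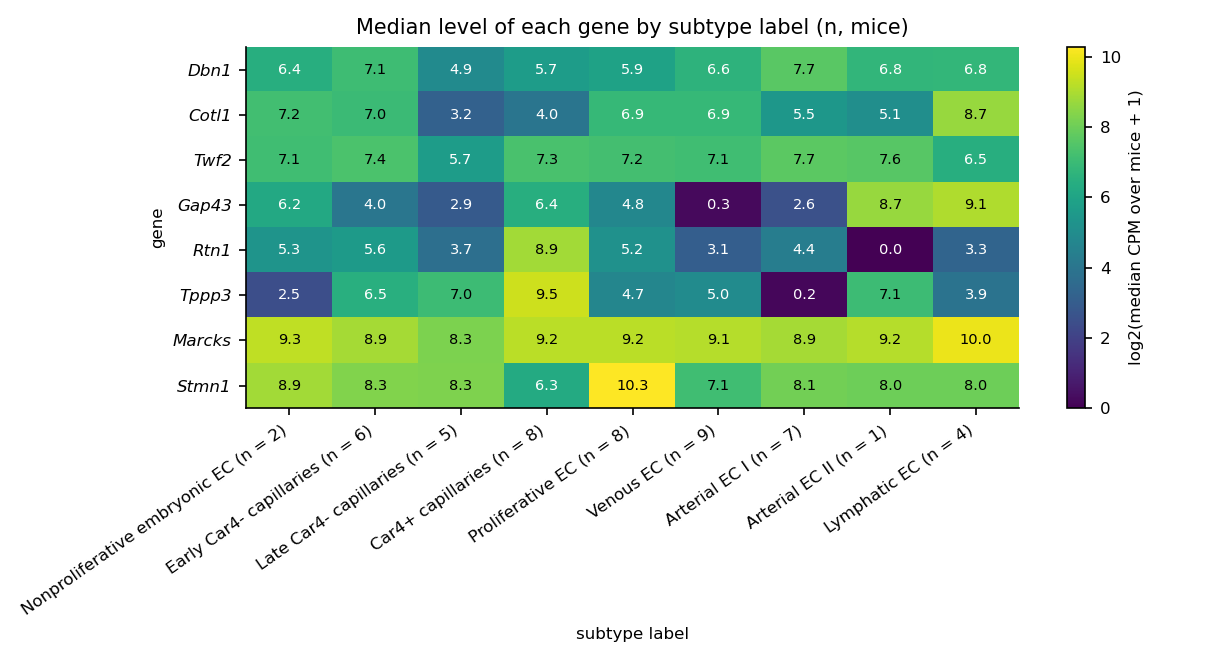
Median level over mice, as log2(CPM + 1), of the 8 genes (rows) in 9 subtype labels (columns, with the number of mice that had at least 8 cells). By this median Rtn1 and Tppp3 peak in Car4+ capillaries, Stmn1 in proliferative EC, and Cotl1, Gap43 and Marcks in lymphatic EC. The labels hold mice of different days, and arterial EC II rests on 1 mouse.

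Within a mouse, the 2 capillary types differed in the same direction in every one of 8 mice for 5 genes. Rtn1 was higher in Car4+ than in Car4- capillaries by a mean log2 ratio of 3.68 ± 1.14 (SD, n = 8 mice), Tppp3 by 2.54 ± 0.61 and Marcks by 0.70 ± 0.32. Cotl1 (-2.71 ± 0.88) and Stmn1 (-1.95 ± 0.82) were lower in Car4+ cells. Dbn1 was lower in 7 of 8 mice (-1.25 ± 0.87). Twf2 was near equal, higher in 5 mice and lower in 3 (0.26 ± 0.98). Gap43 was higher in Car4+ cells in 6 mice and lower in both P21 mice, with a mean of 1.14 ± 3.57.

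Per kilobase of merged exon, Tppp3 had the highest level of the 8 in Car4+ capillaries at P1 (870 CPM per kb), ahead of Marcks (323), Gap43 (245) and Rtn1 (128). In Car4- capillaries at P7 the order was led by Stmn1 (187 CPM per kb), then Marcks (114), Twf2 (81.6), Cotl1 (71.0) and Tppp3 (37.6). Dbn1 (35.3), Rtn1 (14.9) and Gap43 (5.33) were the lowest of the 8 there. The exon lengths come from the GENCODE M21 annotation, which may not be the one behind the counts.

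**Figure D2:**
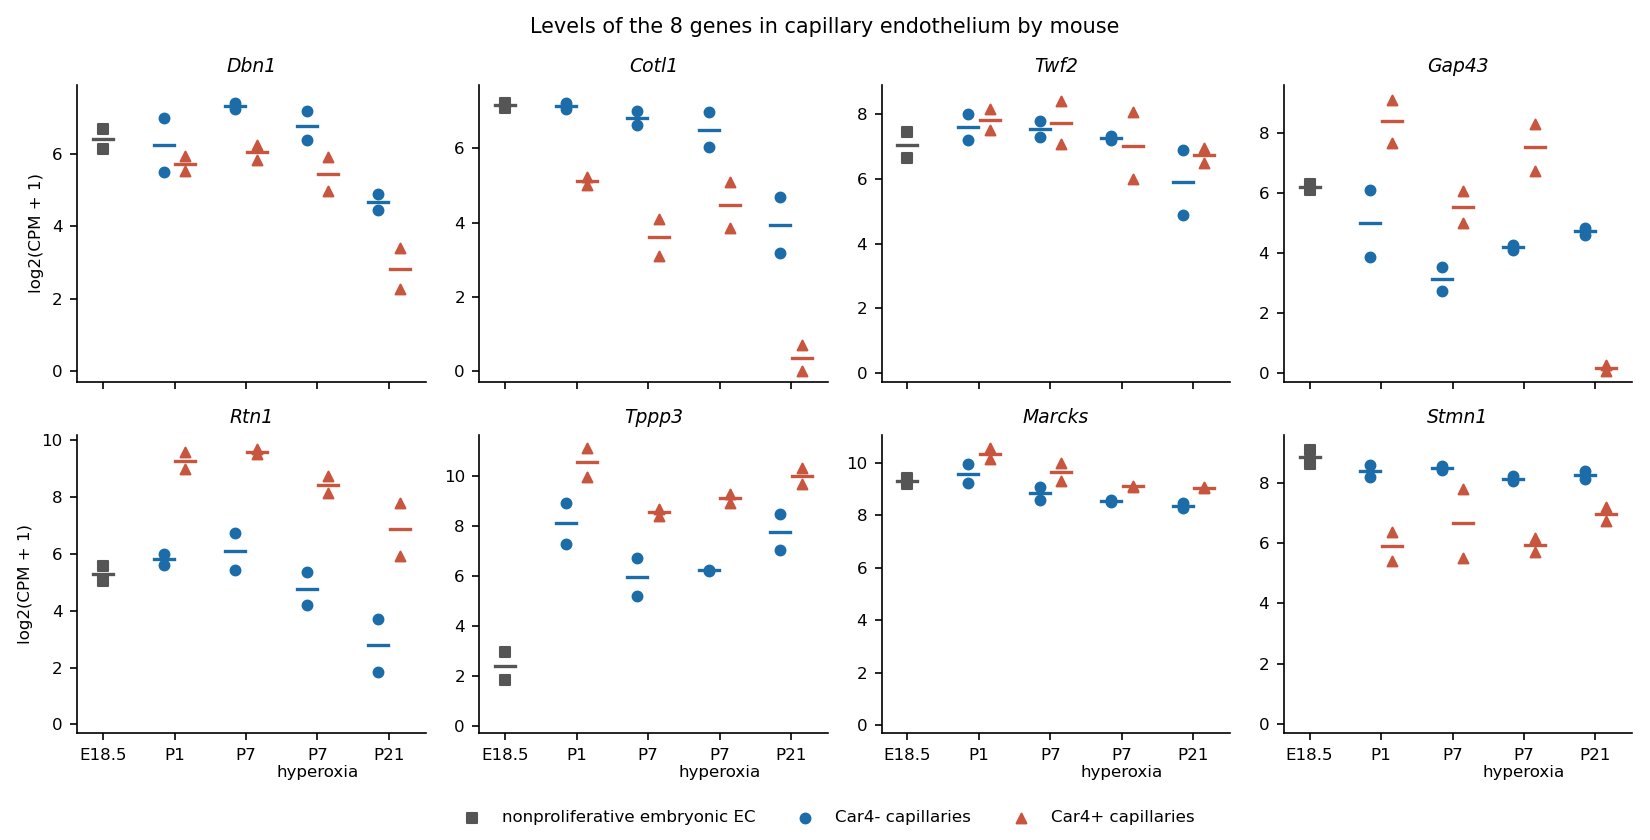
Level of each gene as log2(CPM + 1) in nonproliferative embryonic EC (squares), Car4- capillaries (circles) and Car4+ capillaries (triangles); each point is 1 mouse and each line the mean of 2 mice. Dbn1, Cotl1 and Rtn1 are lower at P21 than at P1 and P7 in both capillary types, Gap43 falls to near 0 in Car4+ cells at P21, and Tppp3 is low at E18.5 and at P7.

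The first 3 genes act on actin. Dbn1 (drebrin, chromosome 13, 55473429 to 55488111, GRCm38) binds the side of actin filaments and is known from dendritic spines. In Car4- capillaries its level was 126 CPM in the P1 female and 44.4 in the P1 male, 169 and 149 at P7, 143 and 82.8 under hyperoxia, and 28.6 and 21.03 at P21. Both P21 mice lay below all 6 mice of P1 and P7, and both P7 mice above both P1 mice. The E18.5 female, whose 13 Car4- cells are mostly labelled Late, had 0 reads of Dbn1. The fitted difference of P21 from P7 was -2.58 on the log2 scale (SE 0.47). In Car4+ capillaries Dbn1 was 59.99 and 45.3 CPM at P1, 55.9 and 75.4 at P7, 30.2 and 59.6 under hyperoxia and 3.81 and 9.51 at P21, a difference of -3.37 (SE 1.06) from P7 to P21. A read of Dbn1 was found in 38.3% and 66.4% of Car4- cells of the P7 mice, and in 8.09% and 6.34% of those of the P21 mice, when every cell was thinned to 50000 reads. In summed reads alone, fewer cells with the transcript and less of it per cell cannot be told apart.

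Cotl1 (coactosin-like protein, chromosome 8, 119809222 to 119840544) binds filamentous actin. Its level in Car4- capillaries was 148 and 133 CPM at P1, 98.9 and 128 at P7, 125 and 64.5 under hyperoxia, and 24.9 and 8.10 at P21. The P21 mice again lay below the 6 mice of P1 and P7, with a log2 difference of -2.70 (SE 0.51) from P7, while the 13 Car4- cells of the E18.5 female had 1.89 CPM. In the P7 male 48.5% of the Cotl1 reads came from 1 cell, and its CD31-gate cells alone gave 76.3 CPM. The share of Car4- cells with a read at equal depth was 30.6% and 47.8% at P7 against 7.72% and 4.48% at P21. Cotl1 was low throughout in Car4+ cells, at 31.5 and 36.8 CPM at P1, 16.3 and 7.63 at P7, and 0.618 and 0 at P21. The P21 values rest on 31 reads in the female and 0 reads in 77 cells of the male, where a count of 0 allows a share of cells with a read of up to 4.68% (exact 95% binomial interval, counting error only).

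Twf2 (twinfilin-2, chromosome 9, 106203108 to 106215389) binds actin monomers and caps filament ends, and belongs with Cotl1 to the family with an ADF-homology fold. It was 148 and 258 CPM in Car4- capillaries at P1, 158 and 221 at P7, 159 and 148 under hyperoxia, and 119 and 28.5 at P21. The fitted difference of P21 from P7 was -1.30 (SE 0.55) in Car4- cells. It was also -1.30 (SE 0.77) in Car4+ cells, where the P21 mice had 88.7 and 125 CPM and the P7 mice 134 and 343. The P21 mice of Twf2 thus lay below the P7 mice in both classes, by less in the female than in the male.

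Gap43 and Marcks code for membrane-bound substrates of protein kinase C that bind phospholipid and affect actin at the membrane. Gap43 (growth-associated protein 43, chromosome 16, 42248442 to 42340651) is a mark of growing axons. In Car4+ capillaries it was 202 and 546 CPM at P1, 65.0 and 30.5 at P7, 105 and 310 under hyperoxia, and 0.219 and 0.0564 at P21. The groups did not overlap in the order P1 or hyperoxia, then P7, then P21, although the P1 and hyperoxia ranges overlapped each other. The P21 values rest on 11 and 3 reads. In cells, the share of Car4+ capillaries with a Gap43 read at equal depth was 64.4% and 52.9% at P1, 16.7% and 4.17% at P7, 47.4% and 56.8% under hyperoxia, and 1.75% and 0% at P21.

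The P7 male value rests on very little. Of its 24 Car4+ cells, 2 had a Gap43 read, both from the mesench gate, and 1 of them held 99.6% of the reads. None of its 18 CD31-gate cells had one. The P7 female had reads in 8 of 37 CD31-gate cells. The fitted P21 minus P7 difference was -8.46 (SE 1.08), and among the males' CD31-gate cells, which shared a run, it was 0.0618 on the log2(CPM + 1) scale, since both were near 0.

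Gap43 was also high in lymphatic EC, so lymphatic markers were read beside it. Gap43 is known from nerve and Schwann cells too. Of 6 markers of these, 5 were among the symbols, with a sum of 0 to 17.8 CPM in Car4+ capillaries. The sum was 0.0807 to 7.87 CPM in Car4- capillaries. A part of such cells in the Gap43 values was not tested. In Car4+ capillaries the 5 lymphatic markers (Prox1, Pdpn, Flt4, Mmrn1 and Ccl21a) summed to 267 and 604 CPM at P7 and 510 and 600 under hyperoxia. They summed to 499 and 618 CPM at P1 and 228 and 136 at P21, against 5467 to 7437 CPM in lymphatic EC. Prox1 and Ccl21a were at 0 in the Car4+ cells of the P1 male, both P7 mice, the hyperoxia male and the P21 female. The sums of those mice thus came from the other markers of the list. The part of lymphatic cells in the Gap43 values was not tested. In Car4- capillaries Gap43 was 13.6 and 67.5 CPM at P1, 10.6 and 5.64 at P7, 18.1 and 16.2 under hyperoxia, and 27.6 and 23.2 at P21. There the P21 mice lay above the P7 mice, the opposite of Car4+ cells, with a log2 difference of 1.75 (SE 0.78), and a read was found in 4.41% and 5.97% of P21 cells.

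Marcks (chromosome 10, 37133375 to 37138920) was among the most widely detected of the 8, with a read in 58.6% to 100% of the Car4- and Car4+ cells of every postnatal mouse at equal depth. In Car4+ capillaries it was 1493 and 1122 CPM at P1, 633 and 1003 at P7, 554 and 535 under hyperoxia, and 530 and 528 at P21. In Car4- capillaries it was 603 and 973 CPM at P1, 383 and 544 at P7, 361 and 379 under hyperoxia, and 305 and 355 at P21. Both P7 mice lay below both P1 mice in each type. The difference of P21 from P7 was -0.36 (SE 0.40) in Car4- and -0.75 (SE 0.46) in Car4+ cells, in each case less than 2 SE. In the males that shared a run it was -0.91 and -2.07.

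**Figure D3:**
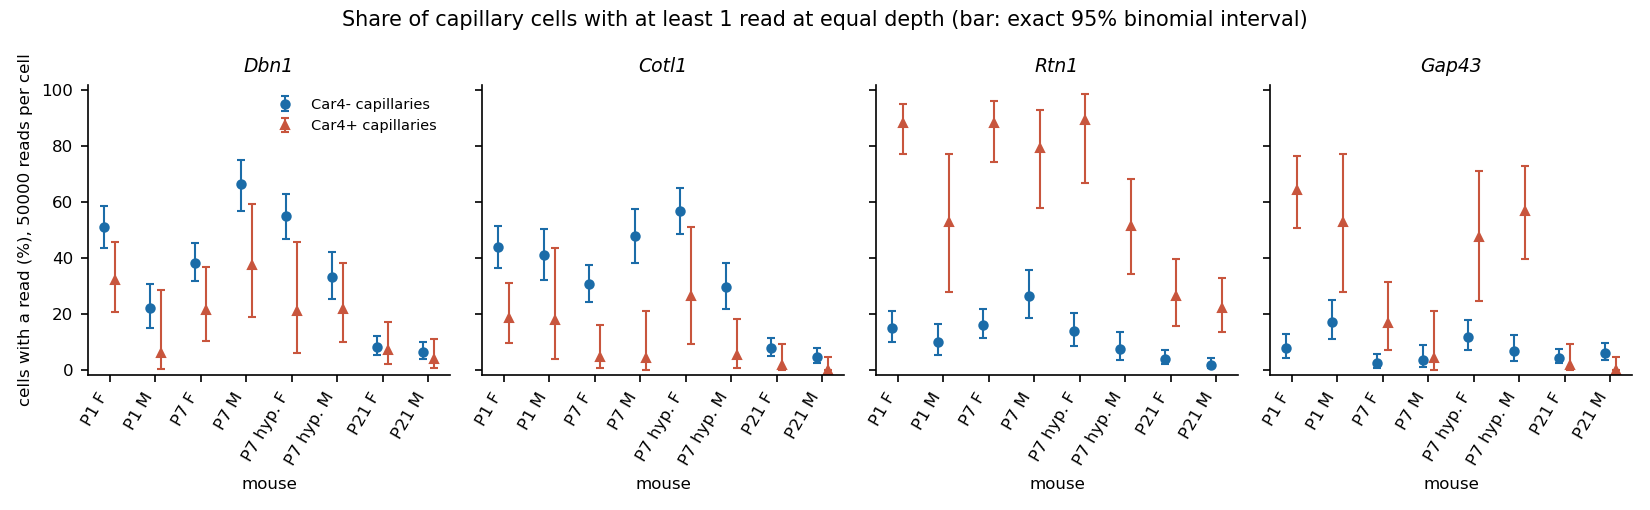
Percent of Car4- (circles) and Car4+ (triangles) capillary cells with at least 1 read of Dbn1, Cotl1, Rtn1 and Gap43 in each of 8 mice, after thinning each cell to 50000 reads; bars are exact 95% binomial intervals. All 4 genes are at or under 26.3% of cells in both P21 mice, and Gap43 in Car4+ cells is lower in both P7 mice than in both hyperoxia mice.

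Tppp3 and Stmn1 act on microtubules. Tppp3 (tubulin polymerization-promoting protein family member 3, chromosome 8, 105467493 to 105471526) was the gene of the 8 with the largest difference around birth. Nonproliferative embryonic EC at E18.5 had 2.55 and 6.64 CPM, and Car4- capillaries at P1 had 154 and 476 CPM, a log2 difference of -6.25 (SE 0.82). The same direction was seen in proliferative EC, with 8.48 and 12.3 CPM at E18.5 against 21.1 and 195 at P1. These P1 values rest on few cells, with a read in 1 of 13 cells of the female and 4 of 9 of the male. In venous EC Tppp3 was 1.76 and 0 CPM at E18.5 against 79.9 and 101 at P1. The E18.5 mice lay below the P1 mice in all 3 comparisons, which use different cells of the same 4 mice. In the females, which shared a run, the difference was -5.48 in embryonic EC against Car4- capillaries and -1.20 in proliferative EC, where the fit over all 4 mice gave -3.57 (SE 1.33).

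After birth Tppp3 was lower in both P7 mice than in the mice of P1 and of P21. In Car4- capillaries it was 35.8 and 103 CPM at P7, 74.8 and 71.1 under hyperoxia, and 348 and 129 at P21. In Car4+ capillaries it was 986 and 2229 CPM at P1, 410 and 334 at P7, 484 and 621 under hyperoxia, and 1250 and 803 at P21. Tppp3 was thus the only one of the 8 that was higher in both P21 mice than in both P7 mice in both capillary types, with log2 differences of 1.87 (SE 0.64) in Car4- and 1.38 (SE 0.52) in Car4+ cells. Among the males' CD31-gate cells, which shared a run, the log2(CPM + 1) difference was 0.64 in Car4- cells and only 0.23 in Car4+ cells, at 684 CPM for P21 and 584 CPM for P7.

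Stmn1 (stathmin 1, chromosome 4, 134468320 to 134473843) binds tubulin dimers and is switched by phosphorylation during the cell cycle. It was 1253 and 1544 CPM in proliferative EC at E18.5, 1237 and 1417 at P1, 1000 and 1122 at P7, and 969 and 1245 under hyperoxia. Within a mouse it was higher in proliferative EC than in Car4- capillaries in 7 of 7 mice, by a log2 ratio of 1.88 ± 0.29 (SD), counting the E18.5 female with its 13 Car4- cells. In Car4- capillaries it stayed between 263 and 381 CPM from P1 to P21, with a P21 minus P7 difference of -0.10 (SE 0.37), while proliferation markers ranged from 141 to 472 CPM in them. The label proliferative venous EC, with 5 cells in each hyperoxia mouse, had 1250 and 1363 CPM of Stmn1.

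Rtn1 (reticulon 1, chromosome 12, 72211752 to 72409054) shapes the membrane of the endoplasmic reticulum and is not a cytoskeletal protein in the strict sense. In Car4+ capillaries it was 764 and 506 CPM at P1, 819 and 735 at P7, 428 and 279 under hyperoxia, and 60.4 and 220 at P21. In Car4- capillaries it was 48.1 and 63.3 CPM at P1, 42.4 and 106 at P7, 39.8 and 17.5 under hyperoxia, and 12.3 and 2.63 at P21. The P21 mice lay below all other mice in both types, with differences from P7 of -2.49 (SE 0.63) in Car4+ and -3.24 (SE 0.75) in Car4- cells. In the males that shared a run these were -1.03 and -4.89. A read was found in 88.1% and 79.2% of Car4+ cells at P7 and in 26.3% and 22.1% at P21.

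Over the 8 genes, 6 were lower in both P21 mice than in both P7 mice in Car4- capillaries, against 21.5% of the 14660 genes tested. The exceptions were Gap43 and Tppp3, which were higher. In Car4+ capillaries 6 were lower, against 12.8% of 12284 genes. Since the genes were selected on this contrast, nothing is read from these counts. The P21 male had the fewest genes per cell, a median of 1175 in Car4- cells at equal depth, and the P7 male 3254, and the part of this difference in the P21 values was not tested.

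For the other 7 genes, nonproliferative embryonic EC of E18.5 were also set against Car4- capillaries of P1. The log2 differences lay between -0.69 (Twf2) and 0.64 (Gap43), each under 1.5 SE. With 2 mice per group, larger differences are not excluded. The Gap43 difference was 2.20 in the females that shared a run. The mice of the groups did not overlap only for Rtn1, lower at E18.5, and Stmn1, higher at E18.5. In proliferative EC, Cotl1 was 122 and 103 CPM at E18.5 against 152 and 339 at P1, and Twf2 was 88.5 and 126 against 176 and 254. Both E18.5 mice lay below both P1 mice for these 2 genes. Gap43 went the other way in proliferative EC, at 64.6 and 108 CPM at E18.5 against 0.169 and 55.8 at P1. Cotl1, Twf2, Rtn1 and Marcks were lower in both E18.5 mice in venous EC, as Tppp3 was. Rtn1 was 0.390 and 0 CPM there against 24.8 and 10.9 at P1. The share of all genes whose mice did not overlap was not counted for E18.5 against P1, so nothing is read from such counts.

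Within the Car4- label, the female P1 and P7 mice had enough cells of both Early and Late labels to compare. Cotl1 was 159 CPM in Early and 2.66 in Late cells at P1, and 109 and 26.9 at P7. Rtn1 was 51.9 and 0.166 CPM at P1 but 42.4 in both at P7. Twf2, Gap43 and Marcks were lower in Late cells in both mice. Tppp3 went the other way in CPM, at 132 in Early and 442 in Late cells at P1 and 34.0 and 48.4 at P7. Its Late values rest on 3 of 21 cells at P1 and 3 of 44 at P7. The share of cells with a Tppp3 read at equal depth was instead lower in Late cells. It was 27.7% in Early and 14.3% in Late cells at P1, and 15.4% and 6.82% at P7. Dbn1 was higher in Late cells at P1 (125 against 143 CPM) and lower at P7 (188 against 41.4), and Stmn1 was lower at P1 (290 against 274) and higher at P7 (351 against 514). Late cells of these mice had a median of 1295 and 1107.5 genes, against 3964.5 and 3153 in Early cells, and the part of this in the levels was not tested.

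P7 was next tested against P1 in normal air with edgeR's quasi-likelihood test on the summed counts, with Benjamini-Hochberg adjustment over all genes tested. Both groups also entered the contrasts behind the choice of genes. None of the 8 genes was called at an adjusted p under 0.05 in any of 4 classes. No gene of the table was called either, with 0% of 14660 genes in Car4- capillaries, 0% of 12284 in Car4+ capillaries, 0% of 13102 in proliferative EC and 0% of 12326 in venous EC. At an unadjusted p under 0.05 stood 3 of the 8 in Car4- capillaries, where 11.3% of all genes did. Both Gap43 (log2 difference -2.52, SE 0.80, edgeR adjusted p 0.385) and Tppp3 (-2.38, SE 0.65, adjusted p 0.385) were among them, with Marcks (-0.92, SE 0.40, adjusted p 0.428). All 3 were lower in both P7 mice than in both P1 mice.

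In Car4+ capillaries 2 of the 8 had an unadjusted p under 0.05, against 6.28% of all genes, and they were again Gap43 (-2.96, SE 0.82) and Tppp3 (-2.05, SE 0.53), both at an edgeR adjusted p of 0.730. In proliferative EC only Cotl1 did (-1.37, SE 0.57, edgeR adjusted p 0.499), against 9.82% of all genes. In venous EC only Gap43 did, against 3.21% of all genes. There Gap43 had 2268 reads at P1 (34.9 and 32.1 CPM) and 0 reads in both P7 mice. In summed reads the ratio was 339 against a floor of 3 reads over the P7 group. Reads were clumped in cells, so this is no lower bound. They came from 4 of 17 cells of the P1 female, with 86.1% from 1 cell, and 10 of 50 of the P1 male. At equal depth 12.5% and 14% of P1 cells had a read. The 0 in 21 and 23 P7 cells allows up to 16.1% and 14.8% (exact binomial interval, counting error only). An equal share of cells is thus not excluded. The edgeR adjusted p was 1.

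These calls depended on the tool. DESeq2 called Tppp3 and Gap43 in Car4- capillaries (2 of 8), where it called 398 of all 14660 genes. It called the same 2 in Car4+ capillaries, where it called 256 of 12284 genes. In venous EC it called Gap43 (1 of 8), and 76 of 12326 genes. It called none of the 8 in proliferative EC, where it called 613 of 13102 genes. The limma fit called no gene in any of the 4 classes.

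**Figure D4:**
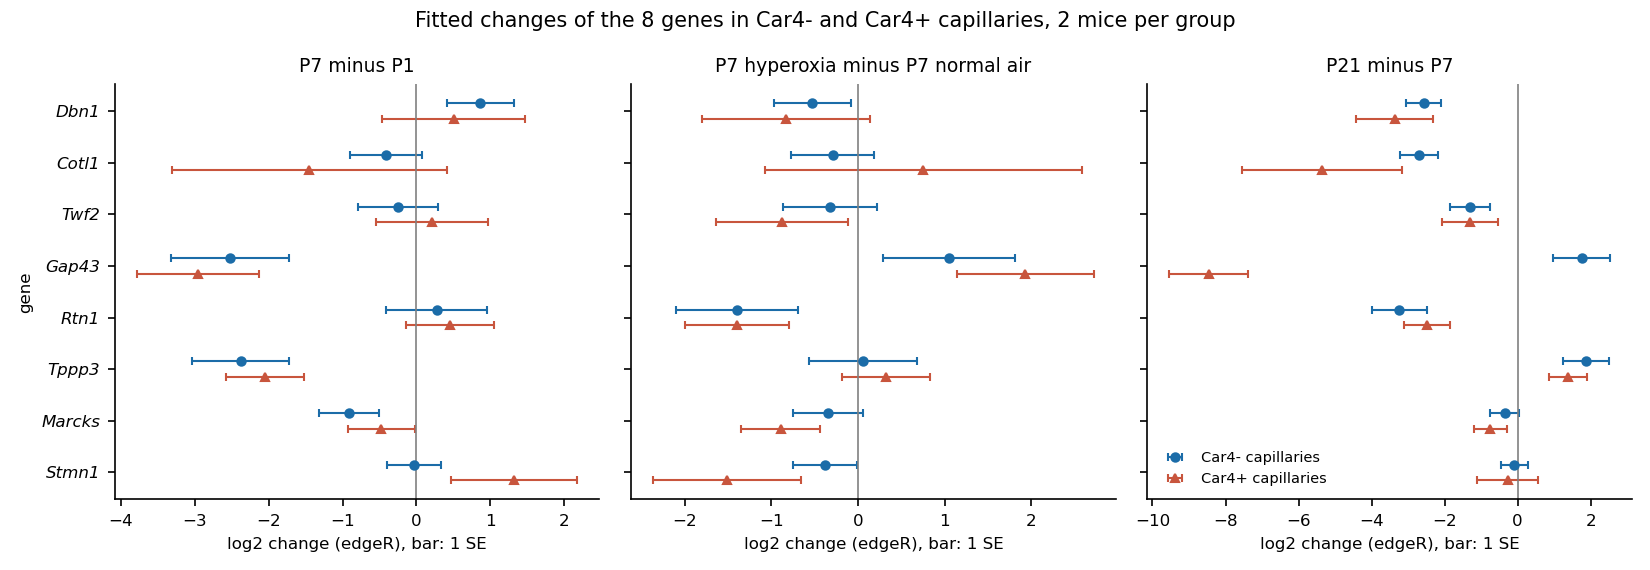
Fitted log2 differences from edgeR for the 8 genes in Car4- (circles) and Car4+ (triangles) capillaries, with bars of 1 SE and 2 mice per group. Gap43 and Tppp3 lie below 0 in both types from P1 to P7, Rtn1 lies near -1.40 in both under hyperoxia, and Gap43 takes opposite signs in the 2 types from P7 to P21; the horizontal scale differs between panels.

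Hyperoxia at P7 was compared with normal air in the same way. The 8 genes gave no call in any class, and the table as a whole gave 2 calls in Car4- capillaries (0.0136% of 14660 genes) and 0% in Car4+ capillaries, proliferative EC and venous EC. DESeq2 called 183, 265, 114 and 92 genes in these 4 classes, with none of the 8 among them, and limma 1 gene in Car4- capillaries and none in the others. In Car4+ capillaries 2 of the 8 had an unadjusted p under 0.05, against 6.16% of all genes. Gap43 was higher under hyperoxia by 1.93 on the log2 scale (SE 0.79, edgeR adjusted p 0.731), and over the alternatives by 0.93 to 2.58 (adjusted p 0.253 to 1). The Rtn1 difference was -1.40 (SE 0.60, edgeR adjusted p 0.731), and -1.64 to -1.03 over the alternatives (adjusted p 0.382 to 1). Both hyperoxia mice lay outside the range of both normal air mice for each gene.

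Among the males' CD31-gate cells, which shared a run, Gap43 in Car4+ cells was 310 CPM under hyperoxia and 0 in normal air, and Rtn1 was 279 against 656 CPM. The female pair came from different runs. Rtn1 was also lower in both hyperoxia mice in Car4- capillaries (-1.40, SE 0.70), with an edgeR adjusted p of 0.887, and by -2.56 in the males that shared a run. No gene of the 8 reached an unadjusted p under 0.05 there, where 5.52% of all genes did.

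In proliferative EC, Dbn1 was 132 and 115 CPM at P7 in normal air and 33.0 and 42.5 under hyperoxia. It was the only one of the 8 with an unadjusted p under 0.05 (-1.72, SE 0.58, edgeR adjusted p 1), against 2.59% of all genes. The males that shared a run had 130 and 42.5 CPM. The mesenchymal markers summed to 13.3 and 401 CPM in the normal air mice and to 24.5 and 11.5 CPM in the hyperoxia mice, and their part in the Dbn1 value was not tested. In venous EC no gene of the 8 passed, where 2.69% of all genes had an unadjusted p under 0.05. Gap43 had 0 reads in normal air and 19 reads under hyperoxia in venous EC, all from 1 of 23 cells of the female. In summed reads the ratio was 4.60 over the same floor, which is no lower bound here either, and it rests on that 1 cell.

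The hyperoxia difference was then compared between classes, in a model that also held a term for each mouse. Against Car4- capillaries, 0 of the 8 genes and 0% of 14711 genes were called for Car4+ capillaries, 0% of 14332 for proliferative EC and 0% of 14317 for venous EC. In edgeR none of the 8 had an unadjusted p under 0.05, and neither did most of the table, with 3.69%, 1.42% and 4.02% of all genes in the same order. DESeq2 called 247, 70 and 212 genes, with none of the 8, and limma called none. The interaction of Gap43 for Car4+ cells was 0.64 (SE 0.81), and that of Rtn1 was -0.05 (SE 1.04), with an edgeR adjusted p of 1 for both.

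Other cytoskeletal genes were read from 11 related lists with 83 genes, of which 80 were tested in Car4- and 77 in Car4+ capillaries. None was called for P7 against P1 or for hyperoxia in either type. From P7 to P21, 54 of 80 were lower in Car4- capillaries, with a median log2 difference of -0.30 against 0.06 over all genes. In Car4+ capillaries 51 of 77 were lower, with a median of -0.24 against 0.05. These lists were drawn up with results of the same cells known, so edgeR calls on P21 against P7 and E18.5 against P1 are given as a description and support nothing about the 8 genes. In Car4- capillaries 1 of the 80 was called, where 0.266% of all genes were, and none in Car4+ capillaries, where 0.00814% were. It was Fscn1 (fascin, which bundles actin filaments in protrusions), named here after its values were seen, at 178 and 97.8 CPM at P7 and 32.1 and 19.4 at P21. By sign alone, and without a test, the lower members in Car4- cells were 6 of 6 actins and tropomyosins, 23 of 31 actin regulators, 4 of 7 of the ADF-homology family and 1 of 3 ERM proteins. They were also 7 of 10 tubulins, 6 of 12 microtubule regulators, 4 of 4 intermediate filament and lamin genes, 2 of 2 relatives of Marcks and Gap43, and the 1 stathmin tested. None of 3 reticulons was lower, in a list that leaves out Rtn1, which was, and neither was Tppp, the 1 relative of Tppp3.

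Close relatives of the 8 genes are given next, also named after their values were seen. Of those compared between P7 and P21, only Marcksl1 had both P21 mice below both P7 mice. Marcksl1, a relative of Marcks, was 200 and 267 CPM at P7 and 83.1 and 65.8 at P21 in Car4- capillaries. Twf1, the relative of Twf2, was 168 and 458 CPM at P7 and 144 and 171 at P21. Stmn2, a stathmin best known from neurons, was 434 and 803 CPM at P7 and 424 and 495 at P21 in the same cells. At birth, 2 of 80 related genes were called between embryonic EC and Car4- capillaries, where 0.494% of all genes were. They were Stmn2, at 76.9 and 77.1 CPM at E18.5 against 390 and 1142 at P1, and Mapt (the microtubule-binding protein tau), at 6.31 and 2.497 against 55.1 and 46.3 CPM.

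Genes most like each of the 8 were ranked by Pearson r of log2(CPM + 1) over 50 sums of a mouse and label, from 9 labels and 10 mice, among 9129 genes. The sums share mice and libraries, so r is a description without a p. Tppp3 was most like Hopx (r = 0.81) and Tbx2 (0.76), and Tbx2 is one of the Car4+ markers used here. Rtn1 was most like Prdm1 (0.78) and Endou (0.76). Stmn1 was most like Tmcc1 (0.84) and Hmgb2 (0.77), the latter a chromatin protein abundant in dividing cells. Gap43 had weaker matches, Mmrn1 (0.57), one of the lymphatic markers, and Grpel1 (0.57). Cotl1 was most like Tcf7l1 and Dnajc2 (both 0.78), Marcks like Ddhd2 and Tacc1 (both 0.68), and Dbn1 like Usp22 (0.74) and Fbxl7 (0.70). Twf2 was most like Ndufa9 (r = 0.81), but Spearman's rho was 0.42 there, and Slc9a3r2 (0.79, rho 0.56). Among the 8 themselves the closest pair was Dbn1 and Twf2 (r = 0.68), followed by Gap43 and Marcks (0.49), Dbn1 and Cotl1 (0.44) and Rtn1 and Tppp3 (0.44).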

How the data were processed

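The authors deposited 1 table of raw read counts per gene and cell, without molecular identifiers. STAR 2.5.2b, HTSeq 0.10 and the build name GRCh38 stand in the submitters' processing notes, with no role or order; GRCh38 is a human build name, and the build behind these mouse counts was not checked. Positions and exon lengths came from GENCODE M21 (GRCm38), which holds 18017 of the 18072 symbols (99.7%). The members and all gene lists were chosen with earlier results of these data known.

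Counts were summed per mouse and class where both mice of a group had at least 8 cells, and tested with edgeR 4.0.16 (TMM, filterByExpr, quasi-likelihood, all groups of a class in 1 model, Benjamini-Hochberg adjustment), after a check on simulated counts. Alternatives were DESeq2 1.42.0, limma 3.58.1 on log2(CPM + 1), RLE normalization, no filter, CD31-gate cells only, cells thinned to 50000 reads (11 shallower cells left out), cells without Mki67 or Top2a reads, sex as a block, and leaving out each mouse. All 8 genes passed the low-count filter in each comparison. Besides the 8, genes were named where called in a related list, by likeness, or where said, after their values were seen. Some items are not reported here.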

Additional observations from a re-analysis of the deposited data

Results flagged for a closer look

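Gap43 moved in opposite directions in the 2 capillary types between P7 and P21. Its log2 difference was 1.75 in Car4- capillaries, where both P21 mice lay above both P7 mice, and -8.46 in Car4+ capillaries, where both lay below. The difference between the types was not tested, because Gap43 was among the genes selected on P21 against P7. The Car4+ side rests on the P7 female when only CD31-gate cells are used, since the 18 such cells of the P7 male had no Gap43 read. The Car4- side rests on few cells, with a read at equal depth in 2.43% and 3.54% at P7 and 4.41% and 5.97% at P21. Groups of 2 mice were too small to look for single mice that stood apart.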

How the results depend on the processing

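Counts of the 8 genes called stayed at 0 under every alternative run for hyperoxia against normal air and for its interactions between classes. For P7 against P1 they moved from 0 to 2 with DESeq2 in Car4- capillaries and to 1 with DESeq2 in venous EC. In Car4+ capillaries they moved from 0 to 2 with DESeq2 and to 2 without the low-count filter. The share of all genes called without the filter is not given here. Leaving out 1 mouse gave 0 to 1 in Car4+ capillaries (Tppp3, without the P1 female) and 0 to 2 in proliferative EC (Cotl1 and Rtn1 without the P1 female, Gap43 without the P1 male). Without the P1 female, 1207 genes of the table were called in proliferative EC, 68 in Car4+ and 26 in Car4- capillaries, against 0 with it; a group left with 1 mouse is assumed to vary like the others. Gap43 from P7 to P21 in Car4+ capillaries was 0.0618 in the males that shared a run, against -8.46 over all mice; the cause was not tested beyond the reads given above. The other P21 minus P7 differences beyond 0.3 on the log2 scale kept their direction in 16 of 16 fitted alternatives, and in the males that shared a run, although Tppp3 in Car4+ capillaries was then 0.23 against 1.38. Sex as a block changed no call of the 8 genes. The fit of E18.5 against P1 in venous EC was not run on cells without Mki67 and Top2a reads, where the E18.5 female had too few cells. The within-run hyperoxia values were chosen after seeing the data. Counts of 31 reads or fewer stand behind Gap43 and Cotl1 in Car4+ capillaries at P21.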
